A study of Mus musculus with 8 samples.

Results

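The genes of the heat shock proteins, the J-proteins and the chaperonins were examined in the testis of Tmem232-/- and Tmem232+/+ mice. Members were the genes of the deposited table whose symbols belong to the Hspa, Hspb, Hspd, Hspe, Hsph, Hsp90, Dnaja, Dnajb, Dnajc and Cct series, with Tcp1, and without Dnajb13 and Hspb11. This gave 80 of the 19906 genes of the table. They comprised 7 genes of small heat shock proteins, 11 of HSP70 proteins, 3 of HSP110 proteins, 3 of HSP90 proteins, 2 of the mitochondrial chaperonin, 10 of the cytosolic chaperonin CCT/TRiC and 44 of J-proteins. RNA came from the whole testis at an age of 2 months, from 4 mice of each genotype with 1 library each. Tmem232-/- mice carry a deletion within Tmem232, made by injecting Cas9 into fertilized C57BL/6 oocytes and so not limited to a cell type, and Tmem232+/+ mice are wild type. The comparison asks how gene expression in the testis changed after the knockout.

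Molecular chaperones bind unfolded proteins and help them to fold, to assemble or to be degraded. HSP70 proteins do this in cycles of ATP hydrolysis that J-proteins start and nucleotide exchange factors such as the HSP110 proteins end, while HSP90 proteins act later on partly folded clients. The ring of CCT/TRiC, built from the subunits encoded by Tcp1 and Cct2 to Cct8, folds actin and tubulin, and the chaperonin of Hspd1 and Hspe1 works inside mitochondria. Male germ cells are known for relatives of these genes that are used mainly in the testis, such as Hspa1l, Hspa2, Hspa4l, Hspb9, Dnajb3 and Cct6b.

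Total counts lay between 15428421 and 16350871 per library. Tmem232 was examined first because it checks the genotype labels. Its level in replicates 1 to 4 was 148, 132, 123 and 122 counts per 1000000 (CPM) under the knockout label and 111, 106, 108 and 109.9 CPM under the wild-type label. The gene was thus higher in the libraries labelled as knockout (log2 fold change 0.27 ± 0.072 SE, adjusted p = 0.034, edgeR), a call lost under 5 of the 17 alternative settings. The deletion removes only part of the transcript, and a count over the whole gene does not separate the deleted exons from the others. All directions below therefore rest on the labels alone.

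Levels per transcript length were compared in FPKM. The members together took between 1.98% and 2.19% of all FPKM of a library. Hsp90aa1, which encodes HSP90 alpha, ranked first with a mean of 1336 FPKM over the 8 libraries and made up 12.5% of the summed FPKM of the members. Tcp1, a subunit of CCT/TRiC, followed with 1081 FPKM, then Hspb9, a small heat shock protein of the testis, with 634 FPKM and Hspa2, the HSP70 protein that spermatocytes need for meiosis, with 601 FPKM. The first 10 genes in this order held 55.5% of the summed FPKM of the members. Hspb9 and Hspa2 did not differ beyond their spread, since the 8 libraries lay between 522 and 871 FPKM for Hspb9 and between 548 and 648 FPKM for Hspa2. At the other end, Hspb2, Hspb3 and Dnajc22 had so few counts that they failed the filter on low counts, with at most 9 counts per library in each. The other 77 members were tested.

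Most of the family was close to level between the genotypes. Of the 77 members tested, 68 had a log2 fold change within 0.3 of 0. The median over the members was -0.0098 on the log2 scale, against -0.054 over all 15787 genes tested. In the libraries labelled Tmem232-/-, 8 of the 77 members (10.4%) were higher at an adjusted p under 0.05, and so were 10.3% of all tested genes. They were Dnajb8, Cct8l1, Hspa1l, Dnajb7, Dnajc5b, Dnaja4, Dnajc18 and Dnajb4. Hspa8 and Hspa5 were lower, which is 2.6% of the members against 1.46% of all tested genes. Where a fold of at least 2 was asked for beside a raw p under 0.05, 5 members were higher (6.49%, against 5.48% of all tested genes). By this rule 0 members were lower in edgeR and 0 in DESeq2, against 0.114% of all tested genes. At a raw p under 0.05 with no limit on size, 10 members were higher (13.0%, against 14.6% of all tested genes) and 7 were lower (9.09%, against 10.5%). The shares of members called were thus close to those of the whole table, and what follows concerns which members they were.

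**Figure D1:**
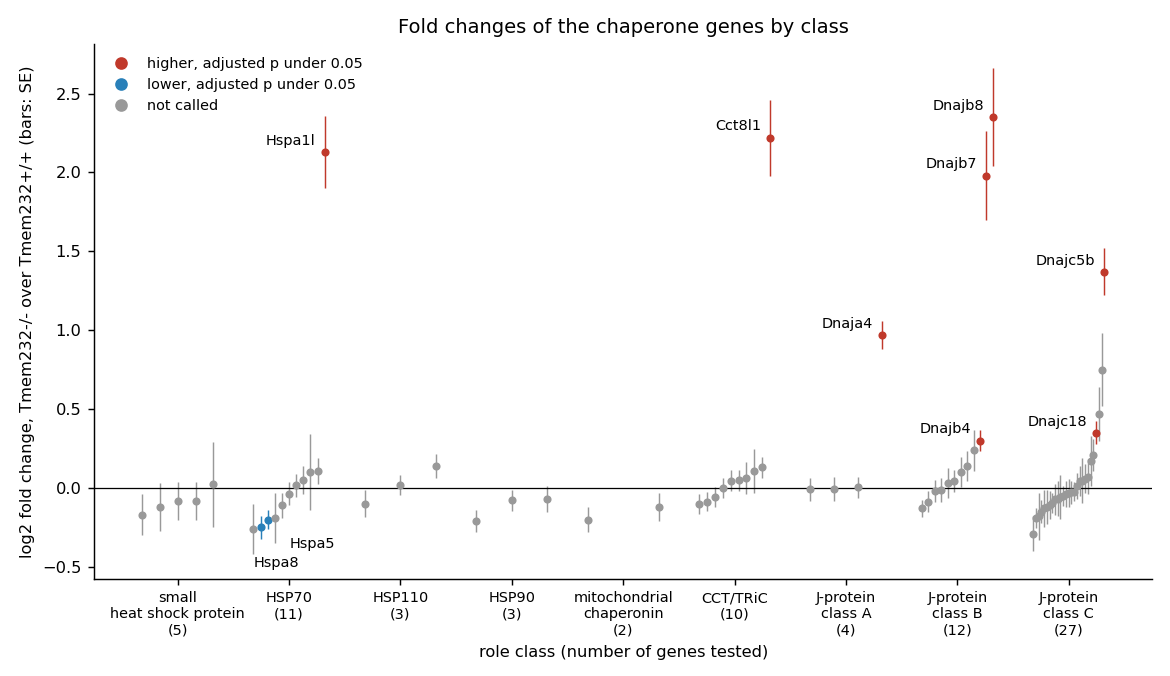
Log2 fold change of each tested member (y axis, Tmem232-/- over Tmem232+/+, bars show the SE) by role class (x axis, number of genes in parentheses). The 8 genes called higher (red) come from the HSP70, CCT/TRiC and J-protein classes, and the 2 genes called lower (blue) are HSP70 genes.

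The genes with the largest changes were relatives of chaperones that every cell uses. Hspa1l encodes an HSP70 protein made in spermatids without heat stress. Its level in replicates 1 to 4 was 97.0, 88.2, 61.9 and 87.9 CPM under the knockout label and 17.3, 11.7, 29.6 and 17.9 CPM under the wild-type label. The genotypes did not overlap, and replicate 3 was the lowest of the first group and the highest of the second. The means were 83.7 ± 15.2 and 19.1 ± 7.54 CPM (SD, n = 4), a 4.38-fold difference (log2 fold change 2.13 ± 0.23 SE, adjusted p = 1e-04, edgeR). Hspa1l (Entrez ID 15482) lies on the plus strand of chr17:34972703-34979228 (GRCm38), head to head with Hspa1a, the stress-inducible HSP70 gene, on the minus strand at chr17:34969359-34972156. Hspa1a and its near copy Hspa1b were both low. Hspa1a averaged 4.96 ± 0.709 and 5.67 ± 1.01 CPM (SD, n = 4) and Hspa1b 5.39 ± 0.974 and 6.45 ± 0.923 CPM, with log2 fold changes of -0.19 ± 0.16 and -0.26 ± 0.16 (adjusted p = 0.49 and 0.35). Hspa1a and Hspa1b have estimated counts that are mostly not whole, so that their split between the copies is uncertain, and 6 of the 8 counts of Hspa1l are not whole either.

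The stretches before both starts are shown because these neighbours differed in their response. Both are 150 bases long and end at the base before the RefSeq start (GRCm38.p6), Hspa1l from the plus strand of chr17:34972553-34972702 and Hspa1a from the minus strand of chr17:34972157-34972306. Capitals mark the letters of a heat shock element, GAANNTTC or TTCNNGAA, and of a CCAAT box, on either strand.
Hspa1l: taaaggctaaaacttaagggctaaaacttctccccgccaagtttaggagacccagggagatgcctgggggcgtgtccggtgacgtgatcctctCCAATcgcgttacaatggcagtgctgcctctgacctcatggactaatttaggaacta
Hspa1a: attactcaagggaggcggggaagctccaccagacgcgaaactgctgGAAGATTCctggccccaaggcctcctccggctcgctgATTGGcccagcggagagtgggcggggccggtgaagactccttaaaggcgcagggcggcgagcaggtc
Hspa1a held the heat shock element letters at position -104 from the start and a CCAAT box at position -67. In Hspa1l a CCAAT box stood at position -57, and the window held no letters of a heat shock element. Such a match describes the letters and is not a measured binding site.

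Dnajb8 and Dnajb7 encode class B J-proteins of the testis. Dnajb8 (Entrez ID 56691, plus strand, chr6:88222268-88225678) measured 27.4, 22.7, 14.6 and 27.4 CPM under the knockout label and 3.43, 2.36, 7.98 and 4.30 CPM under the wild-type label. This 5.11-fold difference was the largest of the members (log2 fold change 2.35 ± 0.31 SE, adjusted p = 0.000355). Every library of the first group lay above every library of the second. Dnajb7 (Entrez ID 57755, minus strand, chr15:81407088-81408273) measured 49.9, 34.0, 29.3 and 40.4 CPM against 8.29, 5.69, 17 and 8.11 CPM, and rose 3.94-fold (log2 fold change 1.98 ± 0.28 SE, adjusted p = 0.000564). It lies within the span of Xpnpep3 on the opposite strand, and the counting is not stated to use strand. Xpnpep3 itself averaged 36.6 ± 4.20 and 36.5 ± 4.95 CPM (SD, n = 4). Whether reads of one gene were counted for the other was not tested.

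Cct8l1 is a relative of Cct8, a subunit of CCT/TRiC. Cct8l1 (Entrez ID 242891, plus strand, chr5:25516067-25518027) had 28.9, 26.7, 22.5 and 30.5 CPM in the libraries labelled Tmem232-/- and 4.61, 3.09, 8.30 and 7.25 CPM in the others. The genotypes were apart, with a 4.67-fold difference (log2 fold change 2.22 ± 0.24 SE, adjusted p = 8.6e-05). Dnajc5b encodes a cysteine string protein of the testis. Dnajc5b (Entrez ID 66326, plus strand, chr3:19508591-19610862) had 53.7, 46.6, 36.6 and 38.4 CPM against 16.8, 12.9, 19.7 and 18.4 CPM, a 2.59-fold difference without overlap (log2 fold change 1.37 ± 0.15 SE, adjusted p = 1e-04).

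Dnaja4, a class A J-protein, is not a member of the testis-enriched list and had the next largest change. Dnaja4 (Entrez ID 58233, plus strand, chr9:54698883-54716317) measured 114, 97.8, 85.5 and 95.1 CPM under the knockout label and 50.7, 45.8, 53.4 and 50.4 CPM under the wild-type label. It was 1.96-fold higher (log2 fold change 0.97 ± 0.091 SE, adjusted p = 4.3e-05) with no overlap. The remaining 3 genes of its class, Dnaja1, Dnaja2 and Dnaja3, had log2 fold changes between -0.0095 and 0.0032. Dnajc18 and Dnajb4 changed less, and both were named after their values were seen. Dnajc18 averaged 83.7 ± 6.53 and 65.5 ± 3.37 CPM (SD, n = 4), with a value of 0.35 ± 0.073 (adjusted p = 0.0070). Dnajb4 averaged 133 ± 9.47 and 108 ± 2.54 CPM, a log2 fold change of 0.30 ± 0.067 (adjusted p = 0.012), and it was no longer called with the replicate number as a block (adjusted p = 0.076).

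**Figure D2:**
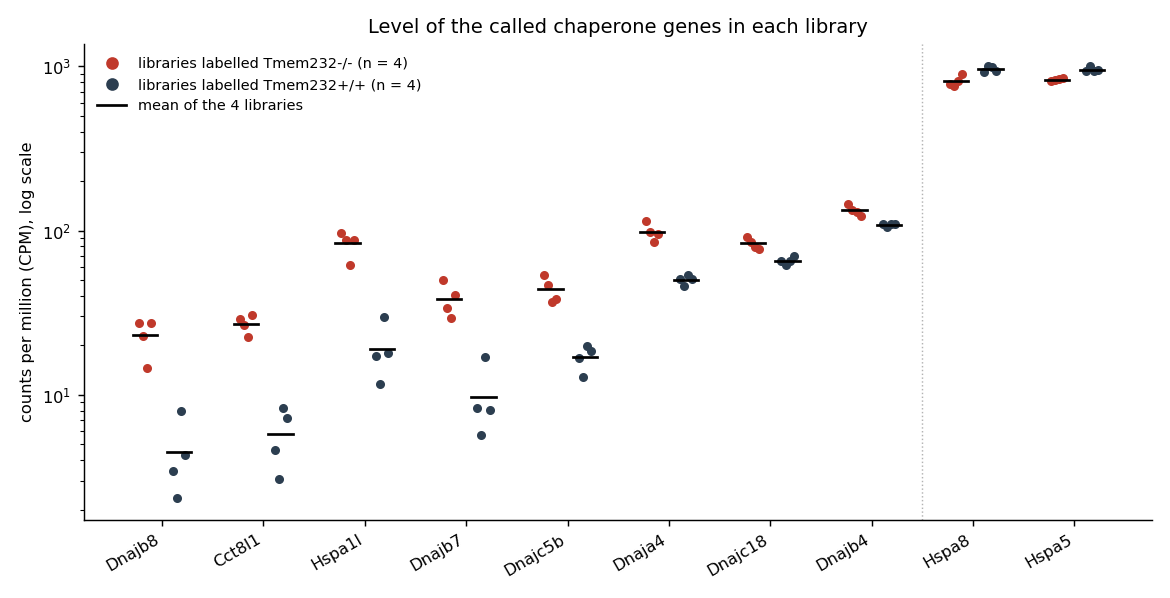
Level of the 8 members called higher and, right of the dotted line, the 2 called lower, in CPM on a log axis, with 1 point per library and a bar at the mean of the 4 libraries of a genotype. The red and dark points do not overlap for any of these 10 genes, and among the Tmem232+/+ libraries replicate 3 is the highest for Dnajb8, Cct8l1, Hspa1l, Dnajb7 and Dnajc5b.

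Apart from the called genes, the groups failed to overlap for few members. Every library labelled Tmem232-/- lay above every library labelled Tmem232+/+ for 10 members (13.0%, against 11.8% of all tested genes), namely the 8 genes called higher with Dnajc6 and Cct2. All lay below for 5 members (6.49%, against 6.88% of all tested genes), namely Hspa8, Hspa5, Dnajb11, Dnajc1 and Dnajc12. Dnajc6, which encodes auxilin, the J-protein that uncoats clathrin vesicles, was low, with 1.64 ± 0.314 and 0.975 ± 0.164 CPM (SD, n = 4) and an adjusted p of 0.058. Dnajc9, a J-protein that handles histones, did overlap between the genotypes. It averaged 34.7 ± 7.93 and 25.1 ± 4.90 CPM and also missed the threshold (adjusted p = 0.11).

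Of the 11 genes of the testis-enriched list 5, namely Dnajb8, Cct8l1, Hspa1l, Dnajb7 and Dnajc5b, were higher by a fold of 2 or more (against 5.48% of all tested genes), and the other 6 did not pass the test. The median log2 fold change of the list was 0.24, and leaving out 1 library moved it to between 0.15 and 0.39. The lower end came without replicate 2 of the libraries labelled Tmem232+/+ and the upper end without replicate 3. Since the list was written with results of these data known, its count is not independent evidence of its direction. The 6 that did not pass were more abundant in FPKM. Hspa2 averaged 1403 ± 87.4 and 1438 ± 82.3 CPM (SD, n = 4), with a log2 fold change of -0.036 ± 0.072. Hspa4l, an HSP110 protein of the male germ line, averaged 935 ± 70.1 and 846 ± 46.6 CPM (log2 fold change 0.14 ± 0.075, adjusted p = 0.26). Dnajb3 averaged 316 ± 35.5 and 267 ± 48.8 CPM (log2 fold change 0.24 ± 0.13, adjusted p = 0.26). Without replicate 3 of the libraries labelled Tmem232+/+, where Dnajb3 was at 331 CPM and the other 3 between 216 and 272 CPM, Dnajb3 passed the threshold (log2 fold change 0.39, adjusted p = 0.022). Hspb9 averaged 336 ± 42.9 and 365 ± 81.9 CPM (log2 fold change -0.12 ± 0.15). Dnajc5g, the third cysteine string protein gene, averaged 153 ± 11.8 and 147 ± 17.1 CPM (log2 fold change 0.059 ± 0.091), and Cct6b averaged 209 ± 29.3 and 194 ± 37.9 CPM (log2 fold change 0.11 ± 0.14).

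Ratios of a relative to its general counterpart, and of Hsp90aa1 to Hsp90ab1, were compared between the genotypes within each library, as log2 of CPM plus 0.5. In all, 10 pairs were compared by an exact two-sided permutation test over the 70 arrangements of the 8 libraries, for which 0.029 is the smallest possible p. The 5 pairs with a relative called higher did not overlap between the genotypes. These relatives were already apart in CPM, so the separation restates their calls and is not independent evidence. The ratio of Hspa1l to Hspa8, the constitutive HSP70 gene, was -3.29 ± 0.32 under the knockout label and -5.69 ± 0.55 under the wild-type label (SD, n = 4, difference 2.41, exact permutation p = 0.029). For Cct8l1 to Cct8 it was -3.82 ± 0.20 and -6.12 ± 0.60, with a difference of 2.30. Against Dnajb6, a J-protein of most tissues, Dnajb8 differed by 2.26 and Dnajb7 by 1.96. The ratio of Dnajc5b to Dnajc5, the cysteine string protein of synapses, differed by 1.5, from -2.11 ± 0.36 to -0.61 ± 0.32. All 5 differences had the same exact permutation p of 0.029, which was 0.057 after Benjamini-Hochberg adjustment over the 10 pairs and so did not pass 0.05.

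The other 5 pairs overlapped between the genotypes. Hspa2 to Hspa8 differed by 0.21 (exact permutation p = 0.11) and Dnajb3 to Dnajb6 by 0.21 (p = 0.11, exact permutation). Hspa4l to Hspa4, an HSP110 gene of most tissues, differed by 0.12 with an exact permutation p of 0.057. For Cct6b to Cct6a the difference was 0.21 (exact permutation p = 0.26), and for Hsp90aa1 to Hsp90ab1 it was 0.13 (exact permutation p = 0.29). The general counterparts had log2 fold changes between -0.25 for Hspa8 and 0.043 for Dnajb6. Counts of Dnajb6 are not whole in any library and those of Cct8 in 7 of the 8, so the ratios to them carry the uncertainty of the estimate.

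**Figure D3:**
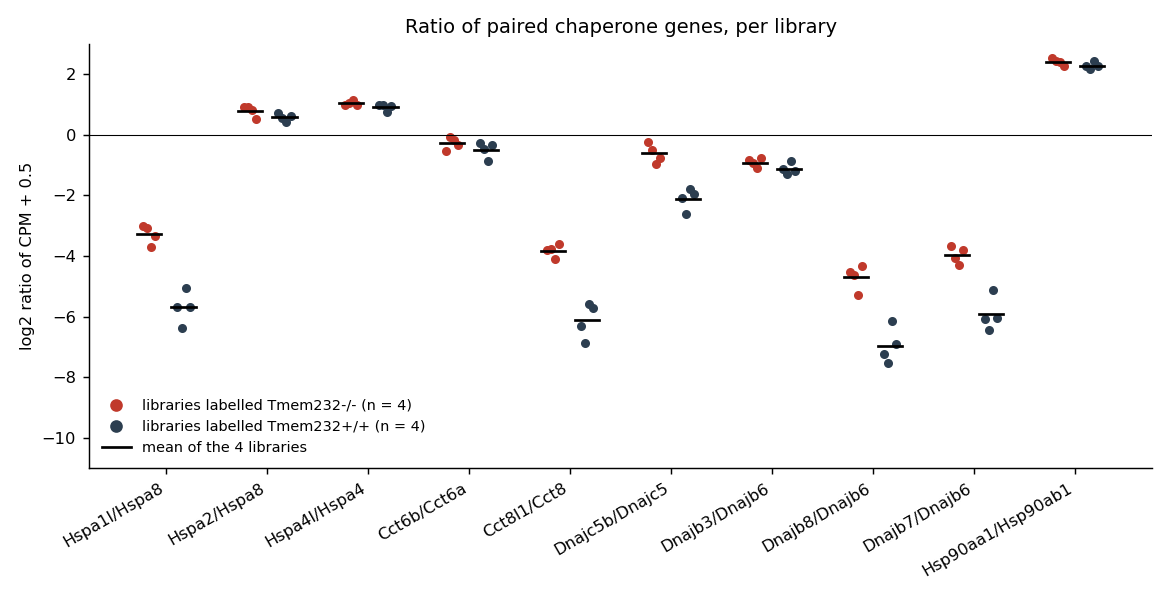
Log2 ratio of the CPM (plus 0.5) of paired genes in each library, for 9 pairs of a testis-enriched gene with a general relative and for Hsp90aa1 with Hsp90ab1, with a bar at the mean of the 4 libraries of a genotype. The ratios of Hspa1l, Cct8l1, Dnajc5b, Dnajb8 and Dnajb7 are separate between the genotypes, and those of the other 5 pairs overlap.

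Of the 5 genes with a fold change of 2 or more, 4 have no intron in their coding sequence. In GENCODE M21 (GRCm38), 11 of the 79 members found by symbol had 1 coding exon in each coding transcript, which is 13.9% against 6.78% of the tested genes found. These were Cct8l1, Dnajb7, Dnajb8 and Hspa1l, which were higher, Dnajb3, Dnajc30, Hspa1a, Hspa1b, Hspa2 and Hspb9, which were not called, and Hspb3, which was not tested. The 79 include Hspb2, Hspb3 and Dnajc22, which were not tested, whereas the 6.78% covers tested genes only. Over the whole table, 20.4% of the tested genes with 1 coding exon and 9.23% of those with more were higher at an adjusted p under 0.05. This property and the next were looked up after the results were seen and are given as descriptions.

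Promoter windows of RefSeq (GRCm38.p6, 250 bases before to 50 after the start) were found for 65 of the 80 members, in 84 windows. Among the 5 genes with a fold change of 2 or more, Dnajc5b had no window in the table used. The other 4 held between 1 and 11 CG dinucleotides, with 1 in Dnajb7, 3 in Cct8l1, 9 in Dnajb8 and 11 in Hspa1l. The 58 tested members with a window that were not called higher held between 6 and 44, with a median of 25, when the window with the most was taken for each gene. The median over 12522 tested genes was 20. Low CG counts were also found in members without a call, since 11 of the 58 held at most 15. This limit is wider than the range of the 4 genes. Within at most 11 lay Hspb7 with 6 and Dnajc24 with 7. Dnaja4 and Dnajb4, which were called higher, held 40 and 44.

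**Figure D4:**
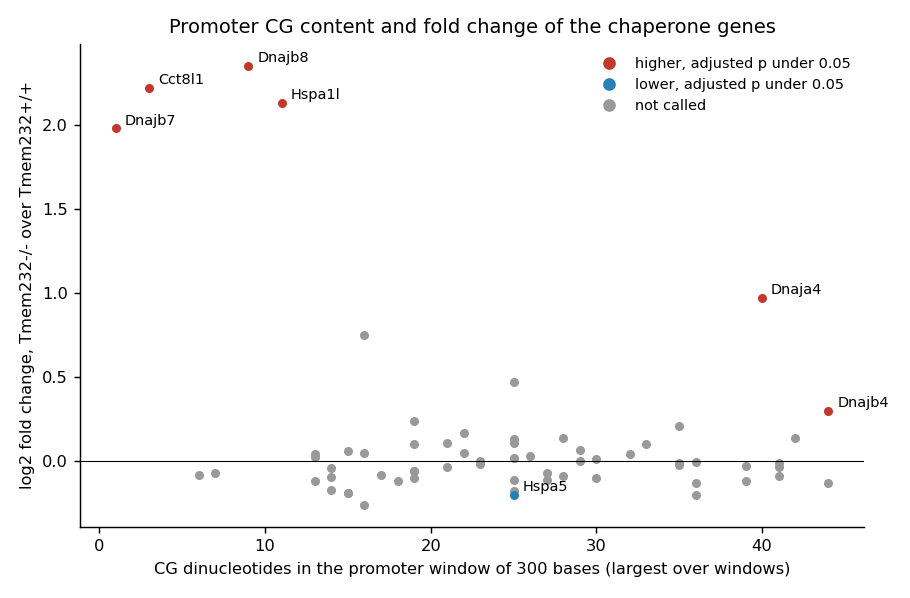
Number of CG dinucleotides in the promoter window of 300 bases (x axis, largest over the windows of a gene) and log2 fold change (y axis, Tmem232-/- over Tmem232+/+) of the tested members with a window. Hspa1l, Cct8l1, Dnajb7 and Dnajb8 lie at 11 CG dinucleotides or fewer, while Dnaja4 and Dnajb4 lie at 40 and 44.

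The 150 bases before the starts of the other 3 genes are shown as examples of these windows, written 5′ to 3′ on the strand of the gene with the same capitals. They lie at chr5:25515917-25516066 on the plus strand for Cct8l1, at chr15:81408274-81408423 on the minus strand for Dnajb7 and at chr6:88222118-88222267 on the plus strand for Dnajb8.
Cct8l1: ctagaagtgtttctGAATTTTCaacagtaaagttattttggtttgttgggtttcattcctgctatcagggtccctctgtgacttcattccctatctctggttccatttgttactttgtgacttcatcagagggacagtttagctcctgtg
Dnajb7: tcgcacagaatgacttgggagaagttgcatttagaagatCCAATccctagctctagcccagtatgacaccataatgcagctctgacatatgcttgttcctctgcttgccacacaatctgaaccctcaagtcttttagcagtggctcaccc
Dnajb8: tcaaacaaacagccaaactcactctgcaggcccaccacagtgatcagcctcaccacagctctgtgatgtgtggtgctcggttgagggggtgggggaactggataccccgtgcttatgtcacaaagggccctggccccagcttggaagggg
Cct8l1 held heat shock element letters at position -136 and Dnajb7 a CCAAT box at position -111, and Dnajb8 held neither. Across the members, the letters GAANNTTC or TTCNNGAA stood in 26.2% of the windows, against 15.1% of all 32851 promoter windows. CCAAT on either strand, which may lie within the endoplasmic reticulum stress response element, stood in 40.5% against 37.4%, and TGACGTCA, the letters of a cAMP response element, in 1.19% against 1.79%.

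Of the 8 CCT/TRiC subunit genes Tcp1, Cct2, Cct3, Cct4, Cct5, Cct6a, Cct7 and Cct8, 0 were called by edgeR, DESeq2 or limma-voom and 0 had an unadjusted p under 0.05 in edgeR (against 10.3% of all tested genes called higher and 1.46% lower, and 14.6% and 10.5% at the unadjusted p), and their log2 fold changes lay between -0.10 and 0.13. Cct2, with the highest, averaged 412 ± 25.4 and 378 ± 14.1 CPM (SD, n = 4, adjusted p = 0.27). By transcript length the subunits were unequal. Tcp1 was at 1085 ± 50.7 and 1077 ± 23.7 FPKM, which over all libraries was 3.87 times the median of 279 FPKM of the other 7 subunits. The counts of Tcp1 are not whole in any library, and its span overlaps Acat2, Acat3 and Mrpl18. Cct6a was the lowest subunit at 124 ± 3.71 and 135 ± 3.93 FPKM, and Cct6b, its relative in the testis, had nearly the same level at 124 ± 17.4 and 117 ± 20.9 FPKM. Cct8l1 stayed low beside Cct8, at 15 ± 2.04 and 3.29 ± 1.37 FPKM against 173 ± 5.88 and 188 ± 8.49 FPKM.

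**Figure D5:**
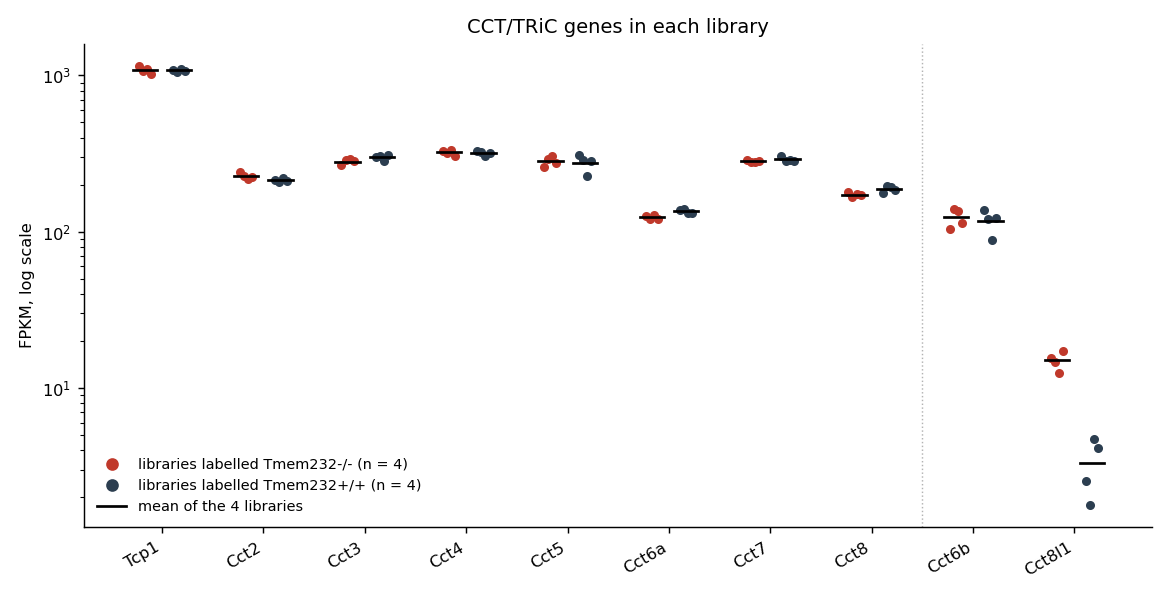
FPKM of the 8 CCT/TRiC subunit genes and, right of the dotted line, of Cct6b and Cct8l1, on a log axis, with 1 point per library and a bar at the mean of the 4 libraries of a genotype. Red and dark points lie at nearly the same height for the subunits and Cct6b, and apart for Cct8l1.

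Hspa8 and Hspa5 were the members called lower. Hspa8, the constitutive HSP70 protein of the cytosol, measured 783, 753, 818 and 891 CPM in the libraries labelled Tmem232-/- and 920.3, 1009, 988 and 938 CPM in the others (log2 fold change -0.25 ± 0.071 SE, adjusted p = 0.044). Hspa5, the HSP70 protein of the endoplasmic reticulum, measured 813, 825, 837 and 843 CPM against 935, 997, 932 and 945 CPM (log2 fold change -0.20 ± 0.058 SE, adjusted p = 0.048). In both genes the groups were apart, but the differences were small, 1.19-fold and 1.15-fold. Each call was lost under 12 of the 17 alternative settings, in which the adjusted p ranged from 0.015 to 0.16 for Hspa8 and from 0.0020 to 0.22 for Hspa5. Hspa5 was named after its values were seen, and its span overlaps that of Rabepk.

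Among members without a call, Dnajc12, a J-protein that assists aromatic amino acid hydroxylases, had the lowest log2 fold change (-0.29 ± 0.11, adjusted p = 0.14) at 5.63 ± 0.373 and 6.89 ± 0.461 CPM (SD, n = 4). Hsp90ab1, the constitutive HSP90 gene, averaged 651 ± 29.6 and 755 ± 51.2 CPM (log2 fold change -0.21 ± 0.070, adjusted p = 0.078). Hsp90aa1 averaged 3481 ± 249 and 3678 ± 55.5 CPM (log2 fold change -0.079 ± 0.069, adjusted p = 0.51).

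The list of heat-inducible genes holds 9 members, among them Hspa8, which is mainly constitutive and was the only one called. All 9 had negative values. They were Hspa1a, Hspa1b, Hspb1, Hsph1, Hsp90aa1, Dnajb1, Hspd1, Hspe1 and Hspa8. This list too was written with results of these data known, so its shared sign is not independent evidence of a direction. The log2 fold changes of the 9 lay between -0.26 and -0.079 with a median of -0.17, while 60.8% of all tested genes were below 0. The median was -0.24 without replicate 4 of the libraries labelled Tmem232-/- and -0.088 without replicate 1 of those labelled Tmem232+/+. The summed level of the 9 was 4622 to 5116 CPM under the knockout label and 5202 to 5337 CPM under the wild-type label. Without Hspa8, a choice made after the values were seen, the sums overlapped, at 3730.4 to 4298 and 4248 to 4417 CPM, and 0 of the other 8 genes were called in edgeR (against 1.46% of all tested genes lower), with 1, Hspe1, at a raw p under 0.05 (against 10.5% lower) and a median of -0.15. Hsp90aa1, which was not called, made up most of these sums. Hspe1, the lid of the mitochondrial chaperonin, averaged 24.0 ± 1.52 and 27.6 ± 1.66 CPM (adjusted p = 0.14), and Hspd1, its ring, 84.8 ± 6.46 and 92.3 ± 9.82 CPM (adjusted p = 0.42). Of the 9 mitochondrial chaperones 0 were called at an adjusted p under 0.05 in edgeR, DESeq2 or limma-voom, and 1, Hspe1, was at an unadjusted p under 0.05 in edgeR (against 10.3% called higher and 1.46% lower over all tested genes, and 14.6% and 10.5% at the unadjusted p). Dnajc15, a J-protein of the inner mitochondrial membrane, averaged 149.6 ± 23.9 and 145 ± 25.4 CPM.

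In the endoplasmic reticulum list of 8 genes, Hspa5 was lower (against 1.46% of all tested genes) and the other 7 did not pass. Hspa5, Dnajb11 and Dnajc1 were at a raw p under 0.05 (against 10.5% lower over all genes) and lay wholly below the libraries labelled Tmem232+/+. The other 7 had log2 fold changes between -0.19 for Dnajc1 and 0.050 for Hspa13. The counts of Dnajc1 are not whole in any library. Hsp90b1, the HSP90 protein of this compartment, averaged 430.4 ± 30.4 and 463 ± 35.5 FPKM. The endoplasmic reticulum stress response element, a CCAAT box and a second short block at a fixed distance, stood in the windows of Hspa5, Hsp90b1 and Dnajc3, which is 3.57% of the member windows against 0.119% of all windows. The stretches of Hspa5 and Hspe1 are shown because each carries the element of its pathway, with the endoplasmic reticulum element in Hspa5 beside a further CCAAT box, and overlapping heat shock element letters in Hspe1. They lie on the plus strand of chr2:34771940-34772089 and chr1:55087998-55088147 (GRCm38.p6).
Hspa5: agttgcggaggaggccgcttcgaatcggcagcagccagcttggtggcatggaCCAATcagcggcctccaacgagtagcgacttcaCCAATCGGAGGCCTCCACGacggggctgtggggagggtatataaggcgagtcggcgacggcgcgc
Hspe1: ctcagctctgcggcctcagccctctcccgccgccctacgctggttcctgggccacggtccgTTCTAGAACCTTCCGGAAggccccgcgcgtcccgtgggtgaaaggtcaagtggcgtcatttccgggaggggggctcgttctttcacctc
The element of Hspa5 begins at position -65. Hspe1 shares its promoter with Hspd1, which is read the other way, and the same letters lie in a promoter window of Hspd1.

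Co-chaperones and heat shock factors were examined through a list of 62 genes. Of the 61 tested, 4 were higher (10.3% of all tested genes were) and 1 was lower (against 1.46%), and the median log2 fold change was -0.047. Calr3, the calreticulin of the testis, measured 32.5, 24.5, 18.8 and 25.9 CPM in the libraries labelled Tmem232-/- and 5.73, 3.81, 7.22 and 5.28 CPM in the others (log2 fold change 2.21 ± 0.20 SE, adjusted p = 3.7e-05). Odf1, a small heat shock protein of the outer dense fibres that is also on the list of elongating spermatid markers, averaged 164 ± 18.4 and 65.3 ± 14.5 CPM (SD, n = 4, log2 fold change 1.33 ± 0.15, adjusted p = 1e-04). These genes of spermatids had the largest changes of the list.

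Hsf2, a heat shock factor of germ cells, had 62.0, 55.8, 54.2 and 50.1 CPM against 36.9, 37.8, 40.9 and 41.3 CPM (log2 fold change 0.50 ± 0.079 SE, adjusted p = 0.0012). Hsf1, the factor that answers heat, averaged 56.0 ± 3.55 and 63.4 ± 2.80 CPM (SD, n = 4), and its log2 fold change of -0.18 ± 0.068 did not pass (adjusted p = 0.13). Bag5, a nucleotide exchange factor of HSP70 proteins, was higher (log2 fold change 0.30 ± 0.072, adjusted p = 0.017, range over the alternatives 0.00019 to 0.066). Chordc1, a partner of HSP90, was lower (log2 fold change -0.32 ± 0.083, adjusted p = 0.027, range 0.014 to 0.13).

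Marker genes of spermatids were higher in the libraries labelled Tmem232-/-, as were the 8 members called higher, while Hspa8 and Hspa5 were lower. Over all tested genes 10.3% were called higher and 1.46% lower. Of 10 markers of elongating spermatids 10 were higher, with a median log2 fold change of 2.27 and a summed level of 1362 to 2258 CPM in the libraries labelled Tmem232-/- against 342 to 689.6 CPM in those labelled Tmem232+/+. Of 10 round spermatid markers 9 were higher, with a median of 1.12 and summed levels of 853 to 1118 CPM against 441 to 617 CPM. Replicate 3 had the lowest sum of both lists among the first group and the highest among the second. The same held for the levels of Hspa1l, Dnajb8, Dnajb7, Cct8l1, Dnajc5b and Dnaja4. For Dnajc18 and Dnajb4 replicate 4 was the lowest of the first group and the highest of the second. In whole testis, more cells of a type and more RNA per cell cannot be told apart, nor can fewer cells and less RNA per cell. The part of the spermatid markers in the changes of the chaperone genes was not tested.

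Of 8 spermatocyte markers 1 was higher and 1 lower (summed level 3493 to 4213 against 3744 to 4471 CPM). The call of Spag6, higher, was lost under 0 of the 17 alternative settings and that of Pou5f2, lower, under 11. Of 7 spermatogonial markers 3 were lower, against 1.46% of all tested genes. The median log2 fold change of the 7 was -0.35, with a summed level of 193 to 210.1 against 233 to 260.2 CPM. A raw p under 0.05 was reached by 6, against 14.6% higher and 10.5% lower over all genes. Among these 6, Gfra1 was higher (log2 fold change 0.42). The lower calls of Stra8, Sall4 and Uchl1 were lost under 6, 5 and 0 of the 17 alternative settings. Of 5 markers of peritubular myoid cells 2 were lower (against 1.46%) and 4 had a raw p under 0.05 (against 10.5% lower), and all 5 values were negative (median -0.35, summed level 197 to 236 against 250.2 to 296 CPM). The calls of Acta2 and Myh11 were lost under 4 and 1 of the 17 alternative settings. For the 7 Leydig cell markers the median was 0.46 on the log2 scale, with summed levels of 402 to 571 against 254 to 436 CPM. Of these, 0 were called (against 10.3% higher) and 5 had a raw p under 0.05 in edgeR (against 14.6% higher), and Lhcgr was closest to the threshold (adjusted p = 0.051, range over the alternatives 0.0034 to 0.13). Red blood cell markers had a median of -0.63, with sums of 150.2 to 596 against 305 to 595 CPM. In edgeR 0 of 5 were called, against 10.3% higher and 1.46% lower over all tested genes. Over the alternatives the adjusted p ranged from 0.019 to 0.41 for Hba-a1 and from 0.0099 to 0.43 for Hba-a2. No marker of Sertoli cells, macrophages or endothelial cells was called in edgeR (against 10.3% higher and 1.46% lower over all tested genes). Sox9 and Pecam1 were lower at a raw p under 0.05 (against 10.5% lower). Sox9, Clu and Pecam1 were each not called under 16 of the 17 alternative settings, with lowest adjusted p of 0.032, 0.036 and 0.028. No marker found in the table was at 0 in all libraries. Among the epididymal markers Crisp1 alone passed the filter on low counts (log2 fold change -2.54 ± 1.4, adjusted p = 0.28), and their summed level was 0 to 6.39 against 0.184 to 32 CPM.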

How the data were processed

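RNA of whole testes was made into TruSeq libraries, and both ends of the fragments were read on a BGI sequencer. The authors mapped the reads to GRCm38.p6 with HISAT and Bowtie2 and counted genes with StringTie and featureCounts. The authors deposited estimated counts per gene without normalization, of which 10.7% to 11.2% are not whole in a library, and these were rounded. The authors also deposited FPKM, scaled by transcript length and library, which were used for levels between genes. Columns with the log2 fold changes, p-values and q-values of the authors hold their own comparison and were not used.

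Counts of all 8 libraries were analysed in R 4.3.3 with edgeR 4.0.16 (its default filter on low counts, TMM, quasi-likelihood test without covariates), with Benjamini-Hochberg adjustment over the 15787 tested genes. Where a pair of means is given, Tmem232-/- comes first. CPM are TMM-scaled. Single values were compared by exact two-sided permutation tests in Python 3.11.15 (smallest possible p 0.029). Members and lists were chosen with earlier results of these data known. Members named were those called with a fold change of 1.5 or more, those of the testis-enriched list and of the 10 ratio pairs, the most abundant of each class, the 3 with the lowest log2 fold change and the chaperonin subunits. Of the co-chaperones, Hsf1, Hsf2 and up to 4 called genes per direction were named. Hspa1a, Hspa5, Hspa13, Hsp90b1, Dnajb4, Dnajc1, Dnajc6, Dnajc9 and Dnajc18 were named after their values were seen. Overlapping genes were read from the spans of the table, without spans of 1000000 bases or more. Alternatives were DESeq2 1.42.0, its size factors, library size alone, leaving out the 10 most abundant genes, no filter, at least 10 counts in every library, limma-voom (limma 3.58.1), FPKM plus 1, the replicate number as a block, each library left out, a fold limit of 1.5 and, for ratios, FPKM plus 1 and a pseudocount of 0.1. The labels name separate mice as replicates, and precision rests on 4 per genotype.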

Additional observations from a re-analysis of the deposited data

How the results depend on the processing

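The 8 members called higher were called under each alternative except the replicate block, which gave 7 without Dnajb4. Dnajc6 was added with at least 10 counts in every library (9 members), and Dnajb3 and Dnajc9 without replicate 3 of the libraries labelled Tmem232+/+ (10 members). The 2 lower calls were less steady. There were 0 with DESeq2 size factors, 0 without a filter, 0 with at least 10 counts, 0 with the replicate block and 4 with library size alone, and between 0 and 1 when each library was left out, so that leaving out any of the 8 libraries changed these calls. Without replicate 4 of the libraries labelled Tmem232-/- Hspa8 remained, and without replicate 3 of those labelled Tmem232+/+ Hsp90ab1 was called instead. DESeq2 gave 3 lower members, and FPKM gave Hspa5 and Dnajc12. With a fold limit of 1.5 in place of 2, 7 members were higher and 0 lower. The median of the members ranged from -0.031 to 0.033 when each library was left out. The replicate numbers did not pair the libraries: deviations of same-numbered libraries correlated at -0.108, 0.122, -0.413 and -0.132, and 0 of 8 libraries correlated best with their own number. With the replicate block the median of the members was -0.013, and 5 members were higher by a fold of 2 or more, as without it.

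Of 797 alternative values of named genes, 729 kept their direction and side of the threshold, 34 lost a call, 8 gained a call and 26 changed sign, with 0 sign changes in called genes. Cct7 was at -0.032 and Hspa4 at -0.015 both with library size alone and with FPKM. Dnaja1 was at 0.015 with DESeq2, 0.017 with its size factors, 0.036 without a filter and 1.7e-05 with at least 10 counts, and Hspa2 was at 0.0077 without a filter. When each library was left out, the log2 fold change ranged from -0.077 to 0.00053 for Cct3, -0.020 to 0.078 for Cct7, -0.059 to 0.065 for Dnaja1, -0.036 to 0.20 for Dnajc15, -0.0054 to 0.16 for Dnajc5g, -0.061 to 0.026 for Hspa2, -0.015 to 0.071 for Hspa4 and -0.23 to 0.059 for Hspb9. The cause was not tested.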
